A study of Homo sapiens with 11 samples.

Results

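Heterogeneous nuclear ribonucleoproteins (hnRNPs) and their companions are the RNA-binding proteins that coat nascent transcripts and steer the spliceosome towards or away from particular exons. Many of them repress an exon when bound inside it and favour it when bound downstream, and many act on exons of their own transcripts, including exons that send the messenger RNA to nonsense-mediated decay. The proteins with arginine and serine rich (RS) domains that gather in nuclear speckles tend instead to bridge the spliceosome's parts across exons. Examined here are 33 named genes of this kind, chosen by name and not by their values, though with earlier results of these data known. All 33 were measured among 14496 genes with a value on the arrays. The members were grouped by role as 5 hnRNPs of the A/B and D type, 7 other hnRNPs with RNA recognition motifs, hnRNP U with MATR3, 5 proteins with KH domains, 5 binders of pyrimidine-rich or U-rich RNA, RBFOX2 with TARDBP, and 7 RS domain or speckle proteins.

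The cells were T-REx-293, made from HEK293, a line of human embryonic kidney origin, so that tetracycline switches on an introduced promoter. All cells carried a plasmid for green fluorescent protein (GFP), and all received 2.5 µg/mL tetracycline over 72 h, so the controls share the plasmid and the drug. The knockdown group of 6 arrays expressed shRNA A (3 arrays) or shRNA B (3 arrays), each aimed at Tat-SF1, a splicing factor that works with the U2 snRNP and was first described as a cofactor of the Tat protein of HIV. The control group of 5 arrays expressed an shRNA aimed at GFP (3 arrays) or an empty vector (2 arrays). The series describes biological replicates and the removal of replicate 3 of the empty vector at quality control. Whether each stable line was a single clone or a pool is not given in the sources used here.

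Values are log2 signals of exon probe sets on Affymetrix Human Exon 1.0 ST arrays, which carry a small group of probes for nearly every exon. The gene value of an array is the median of a gene's probe sets. Values of different genes come from different probes and are not set against each other as amounts of RNA. Pairs of arrays correlated at 0.941 to 0.962, and array medians lay between 7.902 and 7.905, close to the level where dim probe sets crowd (7.91, the lower limit used here). The mean of the 3000 brightest genes was 9.26 in the knockdown group (9.18 to 9.30) and 9.32 in the control group (9.27 to 9.38). A suffix in the array names, of unstated meaning, marks 4 of the 6 knockdown arrays (1 with shRNA A and 3 with shRNA B) and 0 of the 5 control arrays. Values over the arrays without the suffix therefore set replicates 1 and 2 of shRNA A, and no shRNA B array, against the controls. Of 6 markers of HEK293-type lines all were measured, with VIM at 10.11 in the knockdown group and 10.18 in controls, and with NEFM (7.98 and 7.97) and PAX2 (8.10 and 8.18) close to the lower limit. Markers of blood, fibroblasts, endothelium and hepatocytes, 9 of the 15 listed, lay between 7.92 and 8.13 in the knockdown group and between 7.92 and 8.12 in controls. Of the carcinoma markers, EPCAM stood at 8.64 in the knockdown group and 8.81 in controls, and none of the markers passed the test described next.

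HTATSF1, the gene for Tat-SF1, checks the labels. Its values were 8.29, 8.21 and 8.22 with shRNA A and 8.11, 8.19 and 8.21 with shRNA B, against 8.53, 8.63 and 8.49 with the GFP shRNA and 8.54 and 8.32 with the empty vector. Every knockdown array lay below every control array. The difference was -0.30 (SE 0.051, adjusted p = 0.0483 by limma over all genes; exact two-sided permutation p = 0.0022, the smallest that 462 splits can give), or 81.4% of the control signal. The adjusted p passed 0.05 in 1 of the 11 fits that left out 1 array, the one without replicate 2 of the empty vector (adjusted p = 0.0164). Both tests take the arrays as units, so their p-values do not measure the spread between the stable lines. On this scale, signals near the lower limit are compressed, so the loss of transcript may be larger than the difference shows. Since RNA came from whole cultures, fewer cells expressing a gene and less RNA per cell cannot be told apart, here and below.

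No member passed the test in the knockdown group against control. Limma over all genes called 33 genes (0.228%) at an adjusted p under 0.05, and 0 of the 33 members, whose smallest adjusted p was 0.129. At an unadjusted p under 0.05, 5 members stood out (PCBP2, KHDRBS1, RBFOX2, TIA1 and HNRNPA3), which is 15.2% of the members beside 15.2% of all genes. All 5 had the lower mean in the knockdown group, beside 12.8% of all genes with such a p and a lower mean. The members' share at an unadjusted p under 0.05 therefore equals the background. Among genes with a mean value of 9.5 or more, where 14 of the members lie, the share was 14.3% of the members (2 genes) and 23.8% of all genes. Between 8.5 and 9.5 it was 13.3% of 15 members (2 genes) and 22.5% of all genes. Below 8.5 it was 25% of 4 members (1 gene) and 12.1% of all genes.

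The members' differences were small and went both ways. The mean was lower in the knockdown group for 20 members and higher for 13, and 60.6% with a lower mean compares with 67.3% of all genes. The median difference of the members was -0.026, beside -0.017 over all genes. Single members ranged from -0.22 (PCBP2, 85.8% of the control signal) to 0.21 (HNRNPU, 116%). All 33 of the 95% confidence intervals lay within 0.5 of zero on the log2 scale, which is 1.41-fold, and the widest bounds were -0.38 and 0.47. The knockdown and control arrays did not overlap for 1 member, KHDRBS1 (3.03%, beside 2.24% of all genes). Under the 22 alternative settings the number of members with a lower mean ran between 17 and 29, so the split between lower and higher is not firm.

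**Figure D1:**
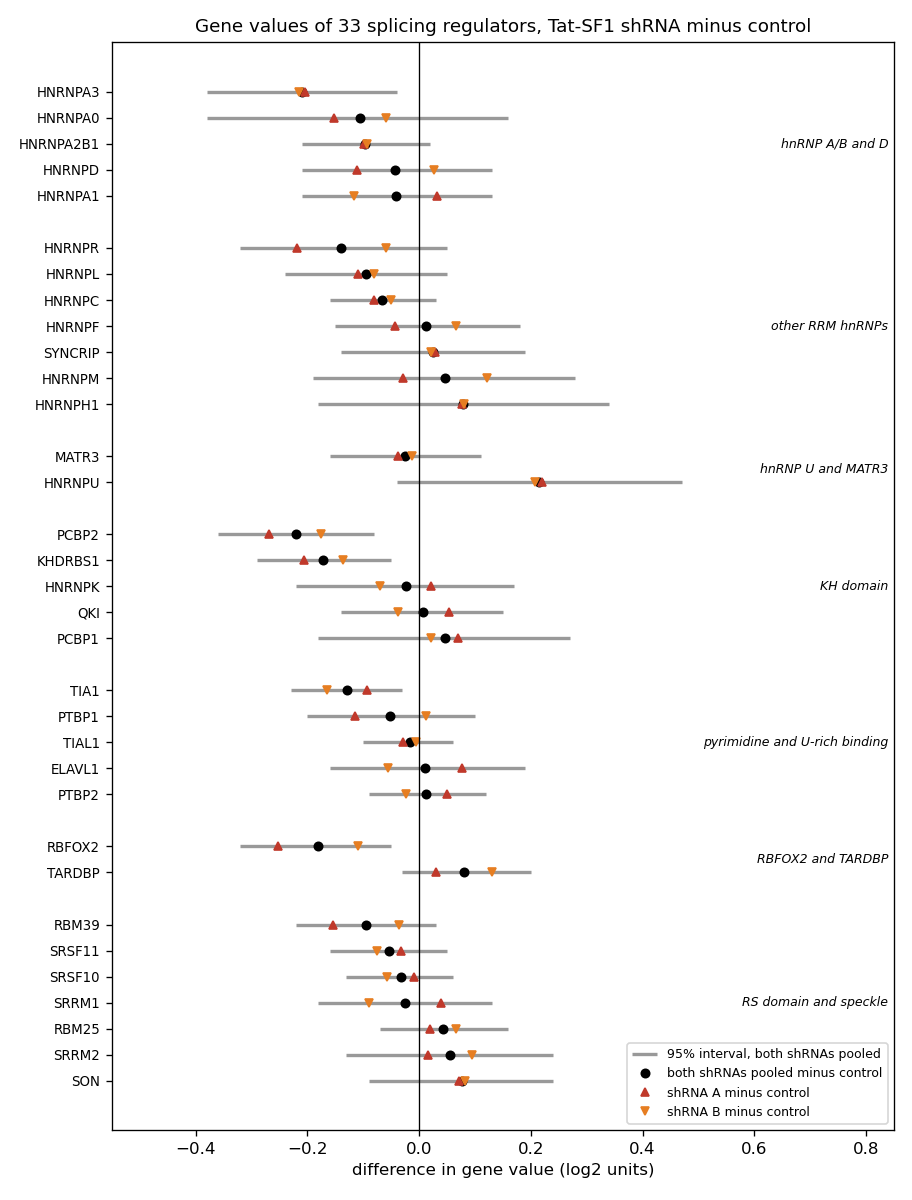
Difference in gene value (log2 units, x axis) of the 33 members, grouped by role, for both Tat-SF1 shRNAs pooled minus control (black points, grey bars are 95% confidence intervals) and for shRNA A and shRNA B each minus control (triangles). All intervals lie within 0.5 of zero; PCBP2 at -0.22 and HNRNPU at 0.21 mark the ends of the range.

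The hnRNPs of the A/B and D type bind purine-rich and AU-rich RNA, and hnRNP A1 is the textbook antagonist of SR proteins at exonic silencers. All 5 had a lower mean in the knockdown group, beside 67.3% of all genes, with a median difference of -0.096, and none passed the test. The count fell to 3 without empty vector replicate 2, where HNRNPA1 was at 0.017 and HNRNPD at 0.006, and with the higher floor, where they were at 0.029 and 0.045. HNRNPA3 differed most. Its values were 9.36, 9.04 and 9.20 with shRNA A and 9.12, 9.39 and 9.05 with shRNA B, against 9.35, 9.46 and 9.61 with the GFP shRNA and 9.38 and 9.21 with the empty vector. The groups overlap, since knockdown arrays near 9.4 reach into the control range. The difference was -0.21 (SE 0.081, adjusted p = 0.234). This value rests on how the probe sets are summarised, because the mean of the probe sets gave -0.069 and the longest run of neighbouring probe set numbers gave -0.046.

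HNRNPA1 differed least in this class. It had 8.73, 8.79 and 9.00 with shRNA A and 8.57, 8.87 and 8.64 with shRNA B, against 8.85, 8.65 and 8.76 with the GFP shRNA and 8.74 and 9.04 with the empty vector. The ranges coincide almost fully. Its difference was -0.04 (95% interval -0.21 to 0.13). HNRNPA2B1, whose product also sorts RNA for transport, averaged 8.57 ± 0.072 in the knockdown group and 8.67 ± 0.10 in controls (SD), a difference of -0.10 (SE 0.054, adjusted p = 0.421). HNRNPA0, known for binding AU-rich elements, averaged 9.43 ± 0.34 and 9.54 ± 0.10, with the wide knockdown spread set by shRNA B (8.98 to 9.93). HNRNPD, also called AUF1, which binds AU-rich elements in messenger RNAs, averaged 9.82 ± 0.13 in the knockdown group and 9.86 ± 0.15 in controls.

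The other hnRNPs with RNA recognition motifs were split in direction. The mean was lower for 3 of the 7 and higher for 4, with a median difference of 0.012. This split is not firm, because the 4 higher members turned lower in other settings. With the mean of the probe sets HNRNPF was at -0.025, HNRNPH1 at -0.071, HNRNPM at -0.011 and SYNCRIP at -0.026. With the suffix as a block they were at -0.045, -0.08, -0.182 and -0.023. The other 3 stayed lower in both settings. HNRNPR, a close relative of SYNCRIP, differed most. Its values were 9.59, 9.44 and 9.83 with shRNA A and 9.76, 9.92 and 9.67 with shRNA B, against 9.82, 10.01 and 9.86 with the GFP shRNA and 9.62 and 9.89 with the empty vector. The shRNA A arrays reach lowest, but both groups share the range between 9.62 and 9.92. The difference was -0.14 (SE 0.088, adjusted p = 0.478), and -0.32 over the arrays without the name suffix, where shRNA A alone stands for the knockdown.

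HNRNPF, which binds G-rich runs, differed least, with 10.18, 10.21 and 10.20 under shRNA A and 10.06, 10.49 and 10.36 under shRNA B, against 10.37, 10.18 and 10.28 with the GFP shRNA and 10.16 and 10.20 with the empty vector. The shRNA B arrays span all the others. Its difference was 0.01 (95% interval -0.15 to 0.18). HNRNPH1, its relative with the same preference for G-rich RNA, averaged 10.27 ± 0.28 in the knockdown group and 10.19 ± 0.18 in controls. Most of its single probe sets went the other way, with 20 of 27 lower and a median difference of -0.07. Without the filter on dim probe sets its gene difference was -0.239. HNRNPL, which binds CA repeats and takes part in an exon switch of CD45 in T cells, averaged 10.18 ± 0.12 and 10.27 ± 0.057. HNRNPC, which binds uridine tracts and keeps antisense Alu elements out of exons, averaged 8.41 ± 0.037 in the knockdown group and 8.48 ± 0.086 in controls. HNRNPM averaged 10.22 ± 0.25 and 10.18 ± 0.15, and SYNCRIP averaged 9.62 ± 0.14 and 9.59 ± 0.11. Each of these differences was smaller than the larger SD of its groups.

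HNRNPU, a scaffold-attachment protein that binds both RNA and chromatin, had the highest positive difference of the members. Its values were 10.09, 9.65 and 10.27 with shRNA A and 9.71, 10.28 and 10.00 with shRNA B, against 9.72, 10.03 and 9.79 with the GFP shRNA and 9.86 and 9.53 with the empty vector. Knockdown arrays spread over 9.65 to 10.28 and include values inside the control range. The difference was 0.21 (SE 0.12, adjusted p = 0.414). The gene value exaggerates what single probe sets show, since the median difference over its 40 probe sets was 0.04 and the mean of the probe sets gave 0.027. For shRNA A alone, over the arrays without the suffix, the difference was 0.088.

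MATR3, matrin 3, a nuclear matrix protein that represses exons together with PTBP1, had 9.83, 9.73 and 9.78 with shRNA A and 9.70, 9.85 and 9.86 with shRNA B, against 9.93, 9.85 and 9.81 with the GFP shRNA and 9.84 and 9.66 with the empty vector. The groups cover nearly the same range. Its difference was -0.03 (95% interval -0.16 to 0.11).

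The KH domain proteins include the member with the lowest difference. PCBP2, a poly(C)-binding protein active in splicing, translation and messenger RNA stability, had 10.01, 10.01 and 10.12 with shRNA A and 10.14, 10.08 and 10.20 with shRNA B, against 10.39, 10.32 and 10.15 with the GFP shRNA and 10.36 and 10.35 with the empty vector. All control arrays but GFP shRNA replicate 3 lay above all knockdown arrays. The difference was -0.22 (SE 0.065, unadjusted p = 0.0036, adjusted p = 0.129). The median over its 31 probe sets was -0.11, with 24 of them lower. The gene difference was -0.114 with the mean of the probe sets, and -0.306 for shRNA A alone over the arrays without the suffix, and the adjusted p stayed at or above 0.0712 under every alternative run.

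KHDRBS1, known as Sam68, a signal-regulated activator and repressor of exons, is described in full because its groups did not overlap, which was seen in the values. It had 9.69, 9.65 and 9.70 with shRNA A and 9.71, 9.74 and 9.80 with shRNA B, against 9.93, 9.88 and 9.96 with the GFP shRNA and 9.83 and 9.83 with the empty vector. The highest knockdown array, at 9.80, sits just under the lowest controls. The difference was -0.17 (SE 0.056, unadjusted p = 0.0075, adjusted p = 0.168). Without the intensity trend in limma's variance the adjusted p was 0.0494, the only setting that called a member. Single probe sets differed less than the gene value, with a median of -0.04 over its 16 probe sets, and averaging the probe sets gave -0.091.

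QKI, quaking, a regulator of splicing and circular RNA formation, differed least of the KH proteins. It had 8.38, 8.18 and 8.61 with shRNA A and 8.22, 8.42 and 8.25 with shRNA B, against 8.35, 8.22 and 8.42 with the GFP shRNA and 8.41 and 8.28 with the empty vector. The control range lies wholly inside the knockdown range. The difference was 0.01 (95% interval -0.14 to 0.15). HNRNPK, a poly(C) binder like the PCBP proteins, averaged 9.89 ± 0.19 in the knockdown group and 9.91 ± 0.14 in controls, and PCBP1 averaged 8.79 ± 0.22 and 8.74 ± 0.21.

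Among the binders of pyrimidine-rich and U-rich RNA, TIA1 differed most. TIA1 favours weak 5′ splice sites followed by U-rich intron sequence and also forms stress granules. It had 8.5, 8.38 and 8.47 with shRNA A and 8.38, 8.41 and 8.34 with shRNA B, against 8.56, 8.43 and 8.61 with the GFP shRNA and 8.61 and 8.5 with the empty vector. The shRNA B arrays all lay below all controls, while the shRNA A arrays reached into the control range. The difference was -0.13 (SE 0.046, unadjusted p = 0.013, adjusted p = 0.197). It was -0.072 with the mean of the probe sets. TIAL1, the close relative of TIA1, averaged 8.21 ± 0.060 in the knockdown group and 8.22 ± 0.047 in controls.

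ELAVL1, or HuR, which binds AU-rich elements and stabilises messenger RNAs, differed least in this class. Its values were 8.95, 9.02 and 8.85 with shRNA A and 8.70, 8.90 and 8.83 with shRNA B, against 9.17, 8.64 and 8.78 with the GFP shRNA and 8.96 and 8.78 with the empty vector. The GFP shRNA arrays alone span more than all knockdown arrays. The difference was 0.01 (95% interval -0.16 to 0.19). PTBP1, the polypyrimidine tract-binding protein of non-neuronal cells, averaged 10.76 ± 0.088 in the knockdown group and 10.81 ± 0.10 in controls. PTBP2, its neuronal relative, which PTBP1 represses through the splicing of the PTBP2 transcript, averaged 8.63 ± 0.082 and 8.62 ± 0.065. Neither gene value differed by more than its spread.

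RBFOX2 binds UGCAUG and promotes exons that lie upstream of its site. Its values were 8.78, 8.70 and 8.80 with shRNA A and 8.78, 8.96 and 8.96 with shRNA B, against 9.15, 8.95 and 8.89 with the GFP shRNA and 8.96 and 9.09 with the empty vector. The shRNA A arrays all lay below all controls, and the shRNA B arrays overlapped them. The difference was -0.18 (SE 0.064, unadjusted p = 0.012, adjusted p = 0.189), and -0.113 when probe sets were averaged. TARDBP, the gene for TDP-43, a repressor of cryptic exons, had 8.95, 8.90 and 9.04 with shRNA A and 8.99, 9.18 and 9.03 with shRNA B, against 8.99, 8.95 and 8.89 with the GFP shRNA and 8.96 and 8.88 with the empty vector. Its difference was 0.08 (SE 0.054, adjusted p = 0.508), with overlapping groups, and -0.007 for shRNA A alone over the arrays without the suffix.

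**Figure D2:**
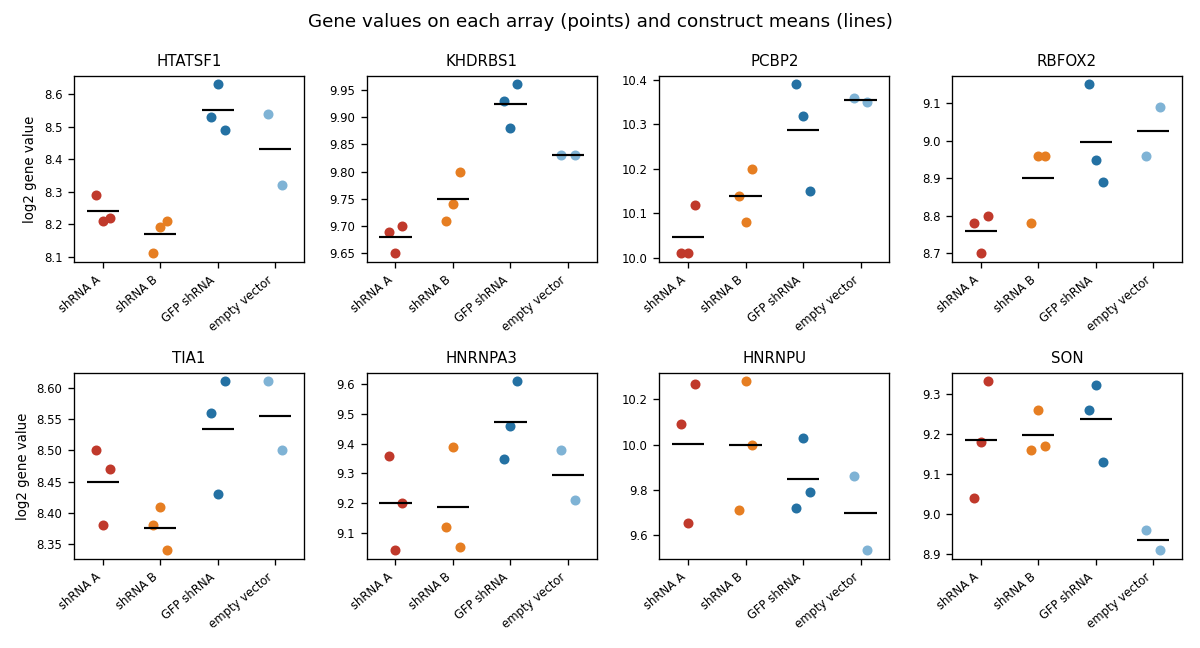
Gene values (log2, y axis) of the targeted gene HTATSF1 and 7 members on each of the 11 arrays, with shRNA A and shRNA B left of the GFP shRNA and the empty vector; lines are construct means and each panel has its own y range. The knockdown arrays of KHDRBS1 (9.65 to 9.80) lie below all its controls (9.83 to 9.96), HNRNPA3 and HNRNPU overlap, and SON differs between the control constructs.

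The RS domain and speckle proteins differed little. The mean was lower for 4 of the 7 and higher for 3, with a median difference of -0.026. RBM39, a coactivator related to U2AF, differed most, with 8.84, 8.83 and 8.87 under shRNA A and 8.91, 9.10 and 8.88 under shRNA B, against 9.03, 8.98 and 9.04 with the GFP shRNA and 8.88 and 9.08 with the empty vector. The shRNA A arrays lie below the controls and the shRNA B arrays reach past their top. The difference was -0.10 (SE 0.058, adjusted p = 0.458). It was -0.022 with probe sets averaged, and -0.166 with the suffix as a block. SRRM1, a splicing coactivator found with the exon junction complex, differed least, with 9.13, 9.04 and 9.36 under shRNA A and 9.09, 9.12 and 8.94 under shRNA B, against 9.03, 9.04 and 9.26 with the GFP shRNA and 9.13 and 9.23 with the empty vector. All controls fall inside the knockdown range. Its difference was -0.03 (95% interval -0.18 to 0.13).

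SRSF10, an SR-related protein that becomes a repressor when dephosphorylated, averaged 8.49 ± 0.051 in the knockdown group and 8.52 ± 0.075 in controls. SRSF11 averaged 8.58 ± 0.067 and 8.64 ± 0.088. RBM25, which acts on 5′ splice site choice, averaged 8.60 ± 0.072 in the knockdown group and 8.56 ± 0.11 in controls. SRRM2, a scaffold of nuclear speckles, averaged 10.04 ± 0.19 and 9.99 ± 0.11. SON, the other speckle scaffold, averaged 9.19 ± 0.096 in the knockdown group and 9.11 ± 0.18 in controls. None of these differences exceeded the larger SD of its groups.

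Taken singly, shRNA A called 0 members (0.0069% of all genes) and shRNA B called 0 members (0.0621% of all genes) against control. At an unadjusted p under 0.05, shRNA A set apart 4 members (PCBP2, KHDRBS1, RBFOX2 and RBM39), or 12.1% beside 10.8% of all genes. The same rule set apart 2 members with shRNA B (PCBP2 and TIA1), or 6.06% beside 13.3% of all genes. These comparisons share the same 5 controls. RBFOX2 differed by -0.25 (SE 0.072) with shRNA A and by -0.11 (SE 0.072) with shRNA B, and RBM39 by -0.15 (SE 0.067) and -0.04 (SE 0.067). Set directly against shRNA A, shRNA B called 0 members and 0% of all genes. At an unadjusted p under 0.05 it set apart 0 members, beside 4.42% of all genes. The direct differences ran between -0.15 and 0.16, and for RBFOX2 shRNA B minus shRNA A was 0.14 (95% interval -0.03 to 0.32). No member passed, and the bounds of these intervals lay between -0.37 and 0.47. The name suffix lies on all 3 shRNA B arrays and on 1 of the 3 shRNA A arrays, so this comparison is entangled with it. With the suffix as a block, the comparison rests on shRNA A replicate 3 alone, the only shRNA A array with the suffix. In that fit 21 members were lower with shRNA B, against 13 without the block.

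The GFP shRNA against the empty vector measures what may differ between controls. It called 0 members, beside 0.0069% of all genes. At an unadjusted p under 0.05 it set apart 2 members, or 6.06% beside 4.48% of all genes, and these are named after their values were seen. SON had 9.26, 9.32 and 9.13 with the GFP shRNA, against 8.96 and 8.91 with the empty vector. Its difference of 0.30 (SE 0.094, unadjusted p = 0.0061, adjusted p = 0.947) is the widest between the control constructs among the members, and exceeds every difference of a member between knockdown and control. The knockdown arrays of SON, between 9.04 and 9.33, cover the range of the GFP shRNA and lie above the empty vector. RBM25 differed by 0.17 (SE 0.076, unadjusted p = 0.048) between the control constructs.

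Exon usage was read from the splicing index, a probe set's log2 value minus its gene value on the same array, over 917 member probe sets. Each member had between 7 and 57 of them (median 27, against 12 over all genes). In the knockdown group against control 0 member probe sets passed over all 220978 probe sets tested, beside 0.00317% of all probe sets, and the smallest adjusted p of a member was 0.0705. At an unadjusted p under 0.05 there were 159 member probe sets, or 17.3% beside 11.8% of all probe sets. For 17 member probe sets in 13 genes the groups did not overlap, or 1.85% beside 1.45% of all probe sets. The shares were close for bright probe sets and further apart for dim ones. At a mean of 9.5 or more the unadjusted share was 19.7% of 395 member probe sets and 19.4% of all. Between 8.5 and 9.5 it was 16.0% of 238 member probe sets and 15.9% of all, and below 8.5 it was 15.1% of 284 member probe sets and 8.72% of all.

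The rises and falls of the index were of different kinds. Of the 87 member probe sets with a higher index at an unadjusted p under 0.05, 53 had moved by no more than 0.1 themselves and 22 lay within 0.25 of the lower limit. Of the 72 with a lower index, 6 had moved by no more than 0.1 and 2 lay that near to the limit. A higher index thus often went with a lower gene value and a probe set that stayed where it was. KHDRBS1 probe set 2328490 shows this, with 7.96 in the knockdown group and 7.96 in controls and an index difference of 0.17. The highest shares belonged to KHDRBS1 (9 of 16 probe sets, 56.2%), HNRNPA3 (14 of 30, 46.7%), PCBP2 (11 of 31, 35.5%) and RBFOX2 (7 of 22, 31.8%), all with lower gene values. HNRNPF and PCBP1 had none.

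**Figure D3:**
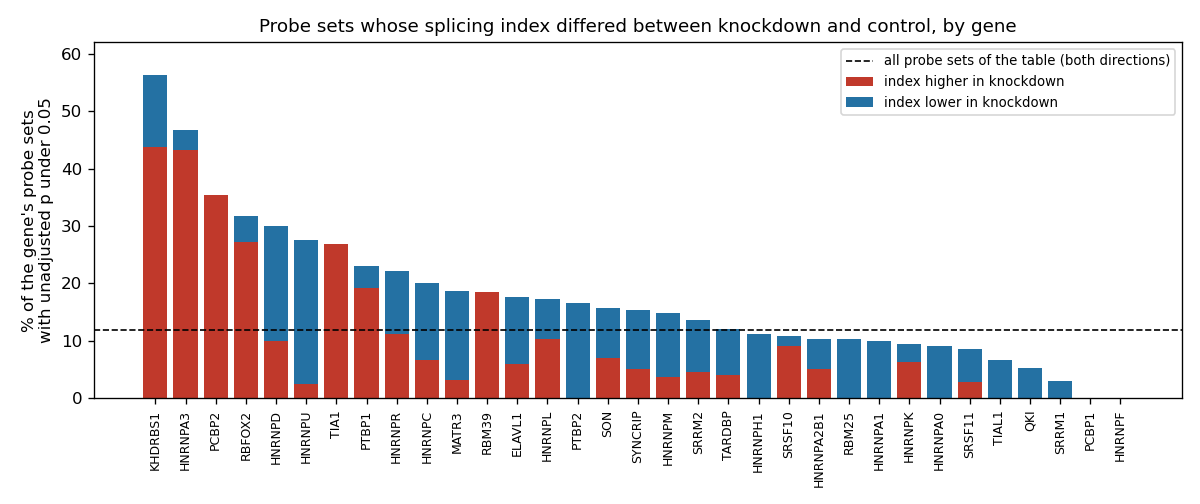
Percentage of each member's probe sets whose splicing index had an unadjusted p under 0.05 in the knockdown group against control (y axis), split into higher and lower index, for the 33 members (x axis). The dashed line is the share over all probe sets, 11.8%; KHDRBS1 reaches 56.2%, mostly with a higher index, and the bars of HNRNPU and HNRNPD are mostly lower.

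For the shRNAs apart, the splicing index called 0 member probe sets with shRNA A and 0 with shRNA B, and 0% of all probe sets in each case. The unadjusted share was 15.3% of member probe sets with shRNA A beside 9.47% of all, and 13.0% with shRNA B beside 10.3% of all. shRNA B against shRNA A called 0% of all probe sets, with an unadjusted share of 5.34% of member probe sets beside 5.52% of all. The GFP shRNA against the empty vector called 0% as well, with 4.91% of member probe sets beside 4.48% of all.

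The member probe set with the smallest p lies in PTBP1. Probe set 3815196, number 20 of 26 in the order of probe set numbers, had 10.75, 10.73 and 10.71 with shRNA A and 10.79, 10.77 and 10.70 with shRNA B, against 11.20, 11.19 and 11.15 with the GFP shRNA and 10.88 and 11.03 with the empty vector. Every knockdown array lay below every control, and the knockdown arrays stayed within 10.70 to 10.79. Its own signal was 10.74 ± 0.033 in the knockdown group and 11.09 ± 0.13 in controls (SD). The index difference was -0.30 (SE 0.044, adjusted p = 0.0705). Against control it was -0.25 with shRNA A and -0.35 with shRNA B. Another 5 of the gene's probe sets, at orders 2, 3, 4, 6 and 10, had a higher index at an unadjusted p under 0.05, with signals 0.11 to 0.17 above the pooled controls. At orders 2, 3, 4 and 6, but not at 10, the empty vector arrays lay lowest of all. At order 4 they had 10.54 and 10.48, against 10.87, 10.79 and 10.84 with the GFP shRNA and 10.62 to 10.98 in the knockdown group. The 5 probe sets are interleaved with probe sets that were lower in the knockdown group, as the plot along 4 genes shows.

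HNRNPD had its lowest probe sets late in its numbering. Probe set 2775500 had 10.28, 10.31 and 10.36 with shRNA A and 10.51, 10.64 and 10.28 with shRNA B, against 10.68, 11.02 and 10.58 with the GFP shRNA and 10.74 and 11.03 with the empty vector. In signal, shRNA B replicate 2 at 10.64 passes GFP shRNA replicate 3, while in the index all knockdown arrays (0.53 to 0.66) lay below all controls (0.75 to 1.17). The index difference was -0.37 (SE 0.062, adjusted p = 0.0789). Probe set 2775496, named after its values were seen, averaged 10.09 in the knockdown group and 10.66 in controls, the lowest signal difference of all member probe sets at -0.57. Without GFP shRNA replicate 1 both of these HNRNPD probe sets passed, 2775500 with an adjusted p of 0.0454. Probe sets 2775497 (9.44 in the knockdown group and 9.72 in controls) and 2775480 (11.59 and 11.86) were lower too, while 2775467 and 2775468 early in the numbering were higher by 0.20 and 0.18.

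HNRNPU showed a step along its probe sets. Probe set 2464552 had an index of -1.43, -1.12 and -1.29 with shRNA A and -0.90, -1.28 and -1.22 with shRNA B, against -0.70, -0.73 and -0.76 with the GFP shRNA and -0.82 and -0.60 with the empty vector. All knockdown arrays lay below all controls. The difference was -0.48 (SE 0.080, adjusted p = 0.0775), and the signal itself averaged 8.79 ± 0.18 in the knockdown group and 9.06 ± 0.14 in controls. The gene value, which the index subtracts, differed by 0.21 with medians of the probe sets and by 0.027 with means. Under the 22 alternative settings the index difference ran between -0.551 and -0.297. The probe set belongs to the last 9 of the gene's 40 probe sets, a block chosen after its values were seen and given without a test. In that block 8 of 9 probe sets were lower in the knockdown group, with a median difference of -0.19. Of the other 31 probe sets, 6 were lower and 23 higher, with a median of 0.07.

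Array by array, the median of that last block minus the median of the other HNRNPU probe sets was -0.96, -0.76 and -1.31 with shRNA A and -0.79, -1 and -0.68 with shRNA B, against -0.73, -0.53 and -0.41 with the GFP shRNA and -0.50 and -0.25 with the empty vector. The knockdown arrays were the lower ones, with shRNA B replicate 3 and GFP shRNA replicate 1 crossing. Which end of the transcript the block covers was not determined, since the deposited table gives probe set numbers and no positions.

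**Figure D4:**
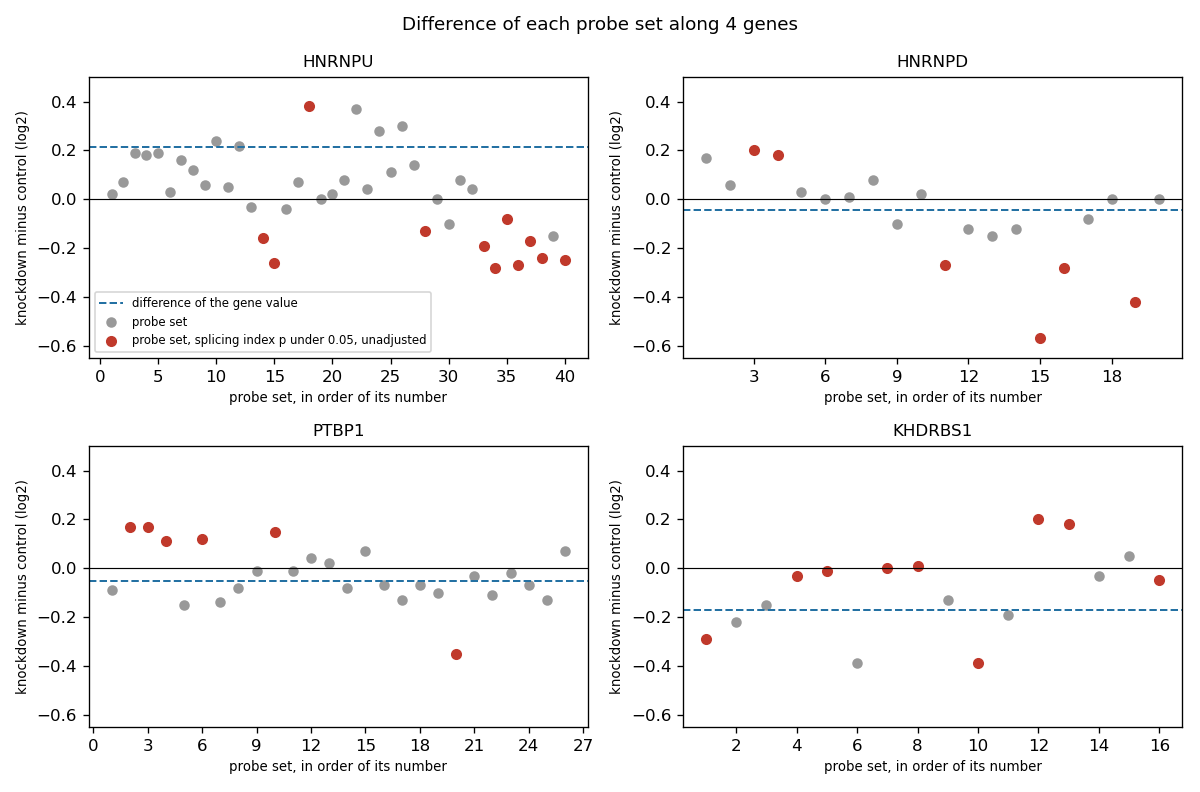
Knockdown minus control difference of each probe set (log2, y axis) in the order of its number (x axis) for HNRNPU, HNRNPD, PTBP1 and KHDRBS1; red points have a splicing index with an unadjusted p under 0.05 and the dashed line is the difference of the gene value. The last 9 points of HNRNPU are mostly below zero, and its gene value difference of 0.21 lies above most of its points.

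KHDRBS1 probe set 2328502 moved against its gene. Its signal was 10.66, 10.73 and 10.64 with shRNA A and 10.68, 10.95 and 10.72 with shRNA B, against 10.70, 10.63 and 10.39 with the GFP shRNA and 10.41 and 10.59 with the empty vector. The signals overlap, but in the index the knockdown arrays (0.92 to 1.2) lay above all controls (0.43 to 0.77). The index difference was 0.35 (SE 0.074, adjusted p = 0.119), and it ran between 0.275 and 0.391 under the 22 alternative settings. It includes the difference of the gene value, which was -0.17 with medians of the probe sets and -0.091 with means. The neighbouring probe set 2328501 was also higher in signal by 0.20, while 2328499, at order 10 of 16, averaged 9.32 in the knockdown group and 9.71 in controls. The 4 probe sets of this gene whose index did not overlap thus include 1 with a lower signal, 1 with a higher one and 2 with signals within 0.01 of control.

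RBFOX2 probe set 3959238 had an index of -0.16, -0.10 and -0.17 with shRNA A and -0.24, -0.06 and -0.12 with shRNA B, against -0.32, -0.31 and -0.35 with the GFP shRNA and -0.52 and -0.60 with the empty vector. The knockdown arrays lie highest, the GFP shRNA in between and the empty vector lowest. The difference was 0.28 (SE 0.056, adjusted p = 0.115), and the GFP shRNA also differed from the empty vector by 0.23 (unadjusted p = 0.0023). The RBFOX2 gene value, which the index subtracts, differed by -0.18, and no probe set of the gene rose by more than 0.1 in signal. Under the 22 alternative settings the index difference ran between 0.186 and 0.322. SRRM2 probe set 3645310 had an index of -0.20, -0.37 and -0.23 with shRNA A and -0.57, -0.41 and -0.45 with shRNA B, against -0.23, 0.01 and -0.06 with the GFP shRNA and 0.00 and -0.01 with the empty vector. GFP shRNA replicate 1 falls among the shRNA A arrays, and the shRNA B arrays lie lowest. The difference was -0.32 (SE 0.068, adjusted p = 0.125), and shRNA B differed from shRNA A by -0.21 (unadjusted p = 0.015).

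**Figure D5:**
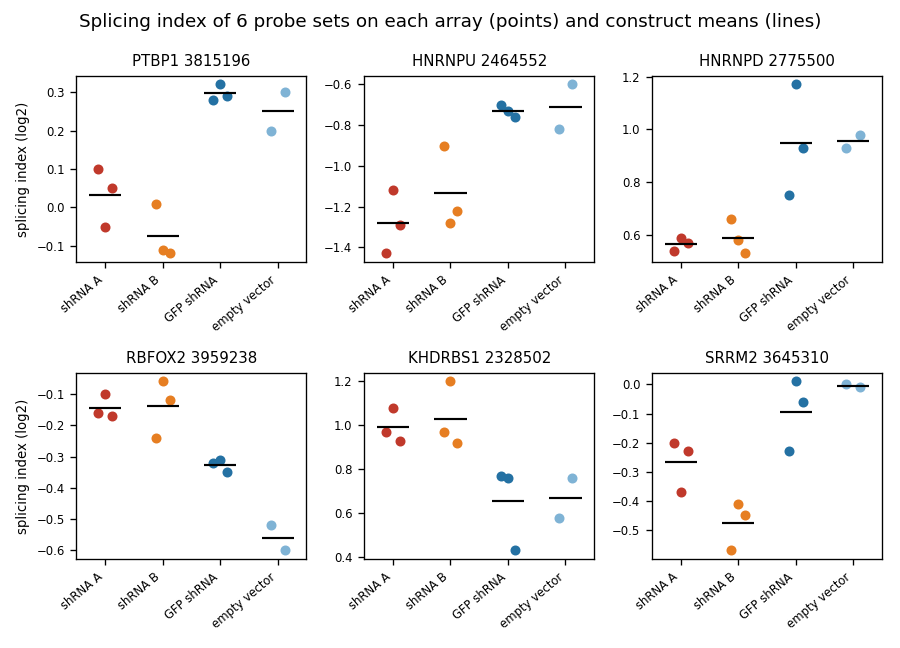
Splicing index (log2, y axis) of the 6 member probe sets with the smallest p, at most 1 per gene, on each of the 11 arrays, with shRNA A and shRNA B left of the GFP shRNA and the empty vector; lines are construct means and each panel has its own y range. In 5 of the 6 panels the knockdown arrays do not overlap the controls, and in SRRM2 1 GFP shRNA array falls among them.

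Some member probe sets may read more than the named gene. The probe set numbers of 13 members fell into more than 1 run (a gap of over 200 between neighbours), with 109 probe sets (11.9%) outside the longest run. HNRNPC had 6 runs, HNRNPA3 had 5, and HNRNPA1 and HNRNPK had 4 each. The HNRNPA1 family is known for many processed pseudogenes. SRSF10 had the most probe sets outside its longest run, 28 of 55. Of its 3 runs, 1 held 27 probe sets (median difference -0.02) and another held 26 (median difference -0.04). HNRNPA3 shows how the runs differ. Its longest run of 16 probe sets had a median difference of 0, with 7 lower, whereas the 5 probe sets at 2630162 to 2630167 had a median of -0.23. In HNRNPC the single probe set 3343617 averaged 10.01 in the knockdown group and 10.41 in controls, while the 6 probe sets of the longest run had a median of -0.03. Values of these genes are uncertain to that extent. With the longest run alone, PCBP2 differed by -0.261. SYNCRIP differed by -0.069 in that setting, where all its probe sets gave 0.025.

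In a list of 52 other hnRNPs and splicing regulators no gene passed either. Of the 46 that were measured, 33 had a lower mean in the knockdown group and 13 a higher one, beside 67.3% of all genes with a lower mean. The median was -0.036, and 0 passed the test (smallest adjusted p 0.147). At an unadjusted p under 0.05 there were 6 of the 46, beside 15.2% of all genes, and 5 of them were lower. The lowest were RALY, an hnRNP related to HNRNPC, with 9.37 ± 0.13 in the knockdown group and 9.55 ± 0.28 in controls, and KHDRBS3, the relative of KHDRBS1, with 8.46 ± 0.12 and 8.65 ± 0.20. The highest were ILF2, with 11.00 ± 0.12 in the knockdown group and 10.90 ± 0.12 in controls, and EWSR1, with 9.68 ± 0.15 and 9.61 ± 0.11. RBM10, named after its values were seen, was the 1 gene of the 46 without overlap between groups, beside 2.24% of all genes, with 8.86 ± 0.050 in the knockdown group and 9.01 ± 0.047 in controls (adjusted p = 0.162).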

How the data were processed

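Total RNA from T-REx-293 cells was measured on 11 Affymetrix Human Exon 1.0 ST arrays, 1 per sample. The deposited file holds log2 values of 1399022 probe sets; from the values, they are log2 and not centred per gene. How the values were background-corrected and normalized, by which software and on which build, is not given in the sources used here. A placeholder value was read as no estimate, for 13190 to 15431 probe sets per array. Groups follow the sample titles.

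Probe sets took their gene from the platform's symbol table, with symbols updated through RefSeq (GRCh38.p14). Of the probe sets, 355799 carried 1 symbol, 15195 several and 1028028 none there. Of 992 member probe sets, 120 in 3 genes came through an older symbol, 978 had an estimate on every array and 61 of these were left out as dim, which left 917. A further 70 shared a symbol with another gene and were not used. A probe set needed a mean of at least 7.91, the median over all probe sets, and a gene at least 4 such probe sets. Gene values are medians. Gene values and splicing indices were fitted with limma 3.58.1 (lmFit, eBayes with trend) in R 4.3.3 and version 1.17.8 of data.table, over all 14496 genes or 220978 probe sets, with Benjamini-Hochberg adjustment. Knockdown against control used 2 levels, each shRNA 3 levels and the controls 4 levels, over all arrays. Replicates are called biological by the series; nothing else says how they were separated. The number of arrays limits the precision. Tests were tried on simulated data with known log2 changes, 0.25 in genes and 0.5 in probe sets. The members' gene differences between knockdown and control, from -0.22 to 0.21, were smaller than the change simulated in genes. The trial therefore does not say whether changes of their size would be found.

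The 33 members, the list of 52 and all rules were chosen with earlier results of these data known. Values per array are given for HTATSF1, for the member with the largest and the smallest difference in each role class, and for 6 probe sets with the smallest p, at most 1 per gene; the list of 52 gives its 2 highest and 2 lowest. Exceptions are named as such. Alternatives varied the floor, the summary of probe sets, the trend, the normalization, the blocks, the control group and the arrays.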

Additional observations from a re-analysis of the deposited data

Results flagged for a closer look

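In 3 of the 66 groups examined (each member in the knockdown and in the control arrays) 1 array stood apart from the rest of its group by Dixon's criterion, which chance meets in about 1 group in 20. RBM39 had 9.10 on shRNA B replicate 2, against 8.83 to 8.91 on the other knockdown arrays. HNRNPH1 had 10.5 on GFP shRNA replicate 2, against 10.04 to 10.14 on the other controls. TIAL1 had 8.31 on GFP shRNA replicate 1, against 8.19 to 8.21 on the other controls. Without shRNA B replicate 2 the RBM39 difference was -0.134.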

How the results depend on the processing

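The number of genes called over the whole table was fragile. It was 33, and became 19 with no filter on dim probe sets, 130 with the floor raised, 139 with means over probe sets, 86 with no trend, 2 with the GFP shRNA alone as control, 10 with the replicate block, 0 with a block for the array-name suffix (1278 genes at an unadjusted p under 0.05), 0 over the arrays without the suffix (1184) and 0 without the brightest and the dimmest array (1703); leaving out 1 array gave 2 (without GFP shRNA replicate 3) to 67 (without empty vector replicate 2). Member calls were 0 in every gene comparison run under these settings, leaving out 1 array included, except for 1 (KHDRBS1, knockdown against control) with no trend. The suffix block was not run for the controls against each other, the GFP shRNA alone as control was run for knockdown, shRNA A and shRNA B, and the arrays without the suffix for knockdown alone. The members' median of -0.026 ran between -0.07 and -0.007, and -0.045 and -0.007 when 1 array was left out, the difference of a member changed sign in at most 9 of 33 members in any 1 setting, and 29 members were lower with means over probe sets (median -0.038, beside -0.017 over all genes), and also with the suffix as a block and over the arrays without it (median -0.07, beside -0.021 over all genes). These last settings use the same contrast, shRNA A replicates 1 and 2 against control. Member probe sets called by the splicing index ran between 0 and 2 when 1 array was left out and were 0 otherwise. HTATSF1 lost its call with no filter (-0.25, adjusted p = 0.0938), the suffix block (-0.25, 0.353), the replicate block (-0.30, 0.0631), the arrays without the suffix (-0.25, 0.491) and without the brightest and the dimmest array (-0.27, 0.117), and ran between -0.34 and -0.26 when 1 array was left out; the cause was not tested. Same-numbered arrays of different constructs correlated at -0.15 to 0.27 in their deviations (15 pairs), beside -0.27 to 0.22 for the other pairs (30). Of the 11 arrays, 4 correlated best with their own number. Deviations within so few arrays of a construct depend on each other, so these pairs cannot decide whether the numbers pair the samples. The replicate block changed no member's call. The longest run, the arrays without the suffix and the setting without the brightest and dimmest arrays were chosen after seeing the data. Signals near 7.91, where dim probe sets crowd, limit what can be seen.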
